A study of Mus musculus with 12 samples.

Results

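Mutant long-term haematopoietic stem cells (LT-HSC) were compared with mutant multipotent progenitors (MPP), both sorted from mouse fetal liver at E13.5. The comparison used 6 of the 12 RNA-seq libraries of the study, chosen by their titles alone: 3 of mutant LT-HSC and 3 of mutant MPP. Both mutant groups carried Setdb1 p/p;vav-cre. What the p allele is goes undefined in the labels. The vav-cre transgene drives Cre recombinase in cells of the blood system. Cells of the LSK gate (no mature lineage markers, Sca-1 and Kit on the surface) were sorted as CD150+,CD48- for LT-HSC and as CD150-,CD48+ for MPP. The 6 control libraries, used here to show where the mutant comparison differs, came from the same gates. Of these, 3 libraries (control 1 of LT-HSC, controls 1 and 2 of MPP) had the genotype Setdb1 +/p;+/+. The other 3 (controls 2 and 3 of LT-HSC, control 3 of MPP) had Setdb1 +/p;vav-cre, so that every library carried at least 1 p allele. By the labels, 500 to 1000 cells were sorted for LT-HSC and 20000 for MPP, with 10 ng of RNA going into each library. Cell type and number of sorted cells therefore cannot be told apart in any difference given here.

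LT-HSC can rebuild the whole blood system, divide rarely and sit at the top of the blood hierarchy, while MPP have lost long-term self-renewal, divide more and begin to express genes of the myeloid and lymphoid lineages. In the fetal liver both populations expand. SETDB1 is an enzyme that places methyl groups on histone H3 at lysine 9, and the mark helps to keep retroelements and germline genes silent.

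The total expected count of the 6 mutant libraries lay between 10119416 and 13052944, and 14863 to 14999 genes had a value above 0 in each. The 3 mutant LT-HSC libraries differed from each other more than the 3 mutant MPP libraries did. Their median SD of log2 CPM (counts per 1e6 counts, after scaling of the library sizes) was 0.268, against 0.135 in mutant MPP and 0.165 in each control group. Pearson's r of log2 CPM across genes was 0.941 to 0.961 between mutant LT-HSC libraries and 0.985 to 0.989 between mutant MPP libraries. LT-HSC mutant 3 had an r of 0.943 to 0.95 with the mutant MPP libraries. That is as high as with LT-HSC mutant 2 (0.941) and lower than with LT-HSC mutant 1 (0.961). Replicates of every group differed by more than sampling noise. Rn45s, the precursor of ribosomal RNA, made up 0.388% to 0.586% of a mutant LT-HSC library and 1.065% to 1.161% of a mutant MPP library. MPP mutant 2 had the Y-linked gene Ddx3y at 113 CPM and Xist at 4.45 CPM, while Xist lay between 226 and 391 CPM in the other 5 mutant libraries, and the part of this difference in the results was not tested. Whether each library had its own animal is not in the labels. The p-values therefore speak of the spread between these samples alone, and that spread may be technical.

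Cell type separated the mutant libraries in a large share of the genes. Of 12452 genes tested, 2845 (22.8%) passed edgeR's quasi-likelihood test at an adjusted p under 0.05. Mutant LT-HSC were higher in 1851 of these (14.9% of the genes tested) and mutant MPP in 994 (7.98%). At least 2-fold differences were found in 1400 of the called genes, 1075 higher in LT-HSC and 325 higher in MPP. The median log2 fold change of LT-HSC over MPP over all genes tested was -0.004. In 5907 genes (47.4%) the 3 libraries of one group lay wholly above those of the other.

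How many genes passed depended strongly on which libraries were used. Without LT-HSC mutant 3 the count was 5087 of 12632 (2555 higher in LT-HSC, 2532 in MPP). Without LT-HSC mutant 2 it was 3802 of 12700 (2121 and 1681). Without LT-HSC mutant 1 it was 1356 of 12610 (946 and 410). Without MPP mutant 1, 2 or 3 it was 1392, 582 and 603 (1026 and 366, 427 and 155, 460 and 143). DESeq2 called 2069 of 12452 genes higher in LT-HSC and 1632 in MPP. A joint fit of all 12 libraries called 2380 and 2349 of 13249. List counts from these fits stand beside these numbers. The plot of calls with each library left out shows both directions for every case. In bulk RNA, fewer cells of a type and less RNA per cell cannot be told apart, and this holds for each gene below.

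**Figure D1:**
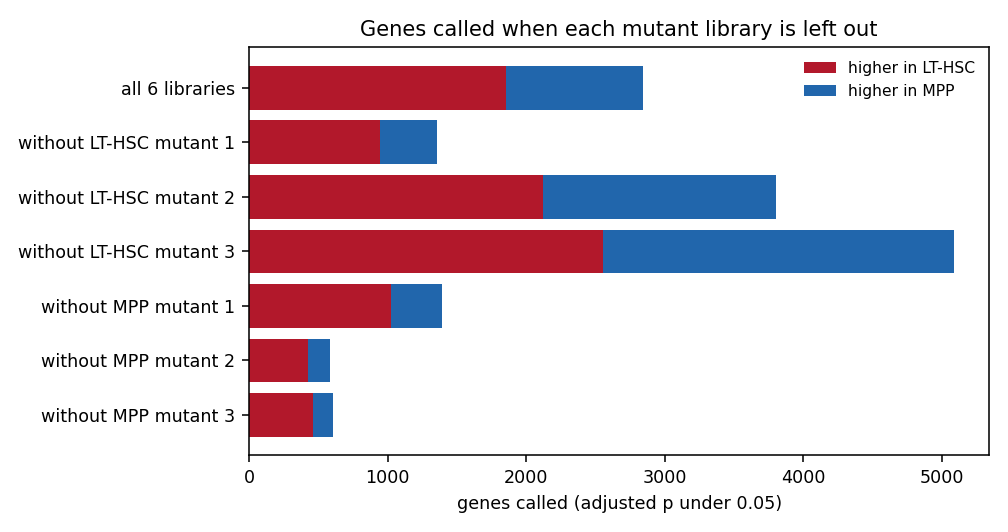
Number of genes called at an adjusted p under 0.05 (x axis) with all 6 mutant libraries and with each library left out (y axis). Red bars are genes higher in LT-HSC and blue bars genes higher in MPP; the total runs from 582 without MPP mutant 2 to 5087 without LT-HSC mutant 3.

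Setdb1, on chromosome 3 from 95323525 to 95357202 (GRCm38), was present in all 6 mutant libraries. It stood at 66.5, 66.5 and 80.8 CPM in LT-HSC mutants 1, 2 and 3 and at 87.0, 117 and 99.1 CPM in MPP mutants 1, 2 and 3. The groups did not overlap, but the difference did not pass the test (log2 fold change -0.45, SE 0.145, adjusted p = 0.0637), nor did it in controls (-0.28, adjusted p = 0.263). The values sum reads over the whole gene and do not check the p allele. Setdb1 overlaps Cers2 in the annotation, and the libraries do not keep strand, so reads from either gene in the overlap cannot be told apart.

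The genes of the proteins that set the gates apart, Slamf1 and Cd48, followed the gates, which is a check of the sort and no finding. Slamf1, which encodes CD150, stood at 41.6, 39.3 and 34.9 CPM in mutant LT-HSC and at 1.29, 1.09 and 1.36 CPM in mutant MPP. Cd48 stood at 10.6, 30.4 and 15 CPM in mutant LT-HSC and at 194, 169 and 150 CPM in mutant MPP. LT-HSC mutant 2 had the most Cd48 of the LT-HSC libraries and still lay well under every MPP library. Kit, which encodes the stem cell factor receptor that both gates share, lay between 836 and 963 CPM in LT-HSC and between 879 and 901 CPM in MPP, with overlapping groups (log2 fold change 0.06, adjusted p = 0.602). Ly6a, which encodes the Sca-1 antigen of the same gate, was at 47.2, 93.6 and 24.3 CPM in LT-HSC and at 16.9, 14.2 and 13.7 CPM in MPP. Every LT-HSC library was above every MPP library, and the difference passed the test (3.81-fold higher in LT-HSC, log2 1.93, SE 0.456, adjusted p = 0.0254). In controls the corresponding log2 fold change of Ly6a was 0.32 (adjusted p = 0.124), and the difference between the 2 contrasts did not pass (adjusted p = 0.212). The log2 fold change of Ly6a was 0.94 with the summed genes of hepatoblasts, precursor cells of the liver, as a covariate and 2.29 without LT-HSC mutant 3, and it did not pass with LT-HSC mutant 1 or any 1 MPP mutant left out (edgeR adjusted p up to 0.109).

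The 12 genes that the naming rule took as higher in mutant LT-HSC include Slamf1, Esam, Trpc6 and Tek of the stem cell list and Vwf and Gng11 of the megakaryocyte list. The other 6 are on neither list. Vwf, which encodes the clotting protein von Willebrand factor and marks a platelet-biased fraction of stem cells, was at 335, 165 and 191 CPM in LT-HSC mutants and at 8.19, 5.44 and 7.63 CPM in MPP mutants. That is 33.4-fold higher in LT-HSC (log2 5.06, SE 0.318, adjusted p = 0.000652), with all LT-HSC libraries far above all MPP libraries. Esam, an adhesion molecule of stem cells and endothelium, was at 227, 178 and 166 CPM against 23.1, 17.3 and 17.9 CPM. It was 10.1-fold higher in LT-HSC (log2 3.34, SE 0.171, adjusted p = 0.000501). Trpc6, a calcium channel, was 21.5-fold higher (65.8, 47.8 and 39.5 against 3.22, 2 and 2.12 CPM, adjusted p = 0.000652). Tek, the angiopoietin receptor that stem cells share with endothelium, was 5.97-fold higher (105, 106 and 70.6 against 17.0, 15.1 and 16.7 CPM, adjusted p = 0.000906). The other genes that the naming rule took for this direction were Ptplad2, Gng11, Abcg3, Rab38, Abhd4, Plekhg1 and Mamdc2, with log2 fold changes from 1.57 for Abhd4 to 3.43 for Plekhg1. None of these 11 genes and Slamf1 overlapped between the groups, a condition of the rule. Ptplad2 overlaps Focad, so its reads are uncertain.

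**Figure D2:**
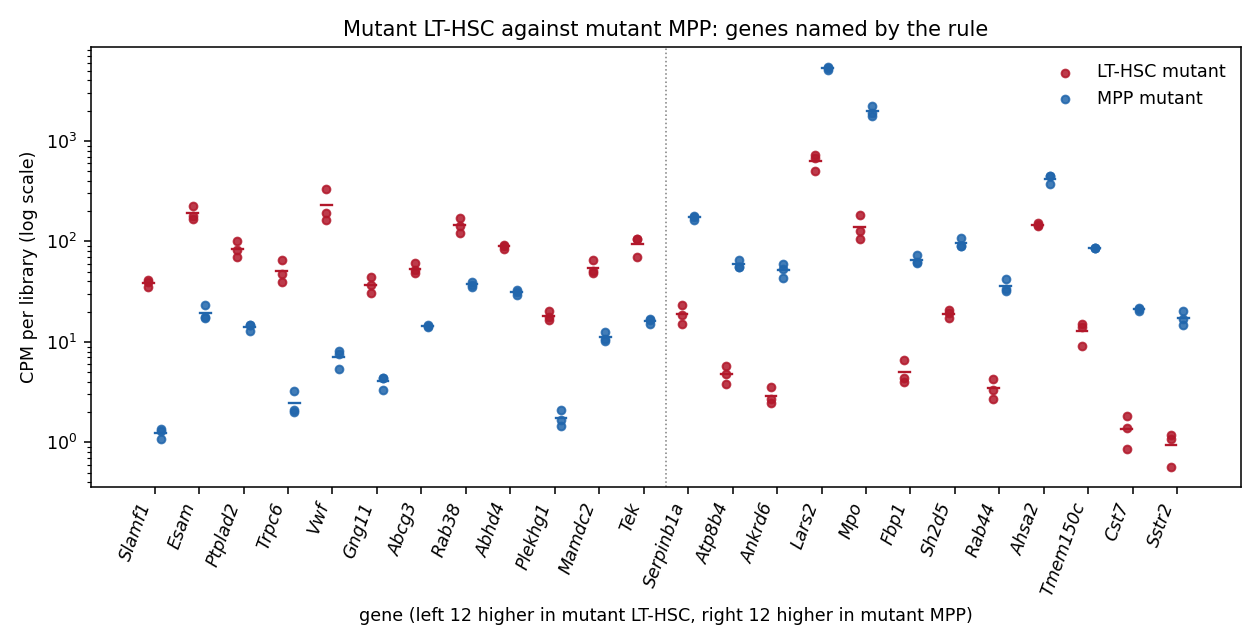
CPM per library on a log axis for the 12 genes the rule took as higher in mutant LT-HSC (left of the dotted line) and the 12 higher in mutant MPP (right). Points are the 3 libraries of a group and short lines their mean; Slamf1 lies between 34.9 and 41.6 CPM in LT-HSC and between 1.09 and 1.36 CPM in MPP.

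Across the stem cell list, 31 of 36 tested members were higher in mutant LT-HSC and none higher in mutant MPP, against 14.9% and 7.98% of all genes. Slamf1, which the sort fixes, is one of them. The median log2 fold change of the list was 1.78. The summed level of the list was 6544, 4643 and 5062 CPM in LT-HSC mutants 1, 2 and 3 and 2306, 2076 and 2035 CPM in MPP mutants. Procr, the endothelial protein C receptor used to purify stem cells, stood at 128, 68.1 and 71.8 CPM against 17.0, 12.8 and 9.91 CPM, 6.93-fold higher in LT-HSC (adjusted p = 0.0028). Mecom, a transcription factor that stem cells require, stood at 299, 172 and 151 CPM against 39.0, 33.3 and 28.1 CPM, 6.37-fold higher (adjusted p = 0.00231). In both, the LT-HSC libraries lay above the MPP libraries, and LT-HSC mutant 1 was the highest. Pdzk1ip1, a membrane protein gene abundant in stem cells, was at 154, 63.9 and 100 CPM against 5.34, 5.63 and 4.24 CPM (adjusted p = 0.00111). Gata2, Hlf, Mllt3 and Fgd5, which encode regulators and markers of stem cells, had log2 fold changes of 1.79, 0.99, 1.56 and 1.4, and all passed the test. The 5 members that did not pass were Gfi1b, Tal1, Lmo2, Rbpms and Socs2. Socs2, a feedback inhibitor of cytokine signals, was at 148, 48.0 and 94.2 CPM in LT-HSC and at 59.6, 54.7 and 36.9 CPM in MPP, where LT-HSC mutant 2 fell among the MPP values. Leaving out 1 library gave 22 to 34 called members. Fgd5 did not pass without MPP mutant 3 (edgeR adjusted p = 0.0528), nor Hlf with LT-HSC mutant 1 or any 1 MPP mutant left out (up to 0.106).

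Genes of megakaryocytes, the cells that make platelets, were also higher in mutant LT-HSC. Of 31 tested members 25 were higher in LT-HSC and none in MPP, against 14.9% and 7.98% of all genes. The median log2 fold change was 1.70. Gp9, a subunit of the platelet receptor for von Willebrand factor, was at 62.3, 61.6 and 46.6 CPM in LT-HSC mutants and at 16.5, 14.4 and 20.9 CPM in MPP mutants (log2 1.76, SE 0.189, adjusted p = 0.00263). Pf4, a platelet chemokine, was at 143, 38.5 and 41.3 CPM against 9.57, 2.90 and 5.68 CPM (adjusted p = 0.0109), with LT-HSC mutant 1 highest. Itgb3, the partner of the platelet integrin Itga2b, did not pass: 61.4, 16.8 and 7.01 CPM in LT-HSC against 5.71, 4.54 and 6.02 CPM in MPP (adjusted p = 0.0505). Without LT-HSC mutant 1 the count of called members was 16, and without MPP mutant 2 or 3 it was 9 each. Pf4 was among those lost there (edgeR adjusted p up to 0.0601).

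Of 18 tested members of the endothelial list, 11 were higher in mutant LT-HSC and 2 in mutant MPP (median log2 1.19). These are 61.1% and 11.1%, against 14.9% and 7.98% of all genes. Those higher in LT-HSC included genes that stem cells are known to share with endothelium. Tie1, an orphan receptor related to Tek, was at 214, 173 and 147 CPM against 35.3, 26.4 and 24.1 CPM (log2 2.68, adjusted p = 0.000906). Robo4, a guidance receptor, was at 87.6, 52.1 and 62.5 CPM against 17.3, 11.3 and 14.7 CPM (log2 2.27, adjusted p = 0.00252). The VE-cadherin gene Cdh5, a defining gene of endothelial cells, was low in all mutant libraries: 3.71, 7.96 and 2.06 CPM in LT-HSC against 1.38, 0.272 and 0.339 CPM in MPP (adjusted p = 0.0376). Lyve1, a gene of liver sinusoids, and Flt1 were the 2 members higher in MPP. Without MPP mutant 2 or 3 the count higher in LT-HSC was 7. Cdh5 did not pass without LT-HSC mutant 1 or 2 or MPP mutant 2 or 3 (edgeR adjusted p up to 0.142), and Flt1 did not pass without LT-HSC mutant 1 or 2 or MPP mutant 1 or 3.

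Homeobox genes of the Hox and Meis list, which encode transcription factors tied to self-renewal, went the same way. Of 16 tested members 11 were higher in mutant LT-HSC and none in mutant MPP, against 14.9% and 7.98% of all genes (median log2 1.5). Meis1 was at 375, 307 and 282 CPM in LT-HSC and at 133, 102 and 105 CPM in MPP (log2 1.55, SE 0.149, adjusted p = 0.00207). Hoxb5, a gene of long-term stem cells, was at 14.6, 7.38 and 9.07 CPM against 0.276, 0.181 and 0.593 CPM (log2 4.87, adjusted p = 0.00215). Meis2 had no counts in any MPP mutant and 4.04, 1.44 and 2.58 CPM in LT-HSC mutants. Against a floor of 3 counts over the MPP group, it was at least 30.2-fold higher in LT-HSC. Hoxb4 was at 2.88, 2.11 and 2.51 CPM against 1.75, 2.36 and 1.19 CPM and did not pass (adjusted p = 0.274). Without MPP mutant 2 or 3 the count of called members was 7.

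Imprinted growth genes are expressed from the allele of 1 parent, and many of them restrain or promote fetal growth. Of 16 tested, 9 were higher in mutant LT-HSC and none in mutant MPP, against 14.9% and 7.98% of all genes (median log2 1.33). The neighbours Igf2, a fetal growth factor gene, and H19, a noncoding RNA gene, had log2 fold changes of 4.36 (SE 0.456, adjusted p = 0.00252) and 3.71 (SE 0.297, adjusted p = 0.0013). Igf2 was at 34.0, 52.5 and 20.4 CPM in LT-HSC mutants and at 2.21, 2.18 and 1.02 CPM in MPP mutants. H19 was at 68.7, 49.4 and 43.1 CPM against 4.69, 5.35 and 2.63 CPM. All LT-HSC libraries exceeded all MPP libraries for both. Ndn, a growth suppressor gene, was at 71.5 ± 13.4 CPM against 19 ± 0.975 CPM (mean ± SD, n = 3 libraries each, edgeR log2 1.96, adjusted p = 0.00119). Cdkn1c, the inhibitor of cell division that holds stem cells in quiescence, was at 46.9, 23 and 79.6 CPM against 17.8, 13.4 and 14.2 CPM (adjusted p = 0.0256). Igf2 overlaps Igf2os, whose reads cannot be told apart from its own. Leaving out 1 library gave 6 to 10 called members. Cdkn1c did not pass with LT-HSC mutant 1 or any 1 MPP mutant left out (edgeR adjusted p up to 0.112).

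Genes of the fetal stem cell program went both ways. Mycn, a growth regulator of stem cells, was at 840, 462 and 686 CPM in LT-HSC and at 317, 212 and 265 CPM in MPP (log2 1.37, adjusted p = 0.00971). Igf2bp2, an RNA-binding protein gene, was at 240, 193 and 147 CPM against 77.4, 57.2 and 56.5 CPM (log2 1.64, adjusted p = 0.00399). Its relative Igf2bp3 went the other way, at 89.9, 135 and 78.3 CPM in LT-HSC and at 202, 182 and 179 CPM in MPP (log2 -0.84, adjusted p = 0.0296). Lin28b, an RNA-binding protein gene of fetal blood stem cells, was at 27.2, 41.7 and 34.7 CPM against 51.6, 51.2 and 41.3 CPM and did not pass (adjusted p = 0.156). In all, 4 of 12 tested members were higher in LT-HSC and 1 in MPP. These are 33.3% and 8.33%, against 14.9% and 7.98% of all genes, so the share higher in MPP was near that of all genes. Igf2bp3 did not pass with LT-HSC mutant 1 or any 1 MPP mutant left out (edgeR adjusted p up to 0.102), nor Mycn without MPP mutant 2 or 3 (up to 0.0554).

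Mpo, Serpinb1a, Cebpa and Elane, genes of neutrophil granules and granulocyte development, were higher in mutant MPP. Mpo, which encodes myeloperoxidase of neutrophil granules, stood at 184, 105 and 127 CPM in LT-HSC mutants and at 1884, 1782 and 2234 CPM in MPP mutants. It was 13.7-fold higher in MPP (log2 of LT-HSC over MPP -3.78, SE 0.212, adjusted p = 0.000512), with no overlap. Serpinb1a, an inhibitor of neutrophil proteases, was at 23.1, 18.5 and 15.2 CPM against 181, 164 and 177 CPM, 8.90-fold higher in MPP (adjusted p = 0.000501). Cebpa, the transcription factor that starts granulocyte development, was at 0.329, 0.192 and 0.369 CPM in LT-HSC and at 7.46, 5.99 and 8.30 CPM in MPP (adjusted p = 0.00132). Elane, the neutrophil elastase gene, was at 42.4, 2.97 and 39.8 CPM against 176, 202 and 314 CPM (log2 -2.97, adjusted p = 0.0323), and LT-HSC mutant 2 stood apart from the other LT-HSC mutants at the low end. The naming rule also took Rab44, Cst7, Atp8b4, Ankrd6, Sh2d5 and Sstr2 for this direction, with log2 fold changes from -4.12 for Sstr2 to -2.28 for Sh2d5. Elane did not pass with LT-HSC mutant 1 or any 1 MPP mutant left out (edgeR adjusted p up to 0.112).

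In the list of multipotent progenitor and myeloid genes, 16 of 29 tested members were higher in mutant MPP, against 7.98% of all genes, and 2 were higher in mutant LT-HSC. The list holds the sort gene Cd48. Its median log2 fold change was -1.33. Flt3, the receptor that marks multipotent and lymphoid-primed progenitors, was at 65.6, 52.0 and 78.2 CPM in LT-HSC and at 274, 204 and 246 CPM in MPP (log2 -1.84, SE 0.185, adjusted p = 0.00234). Cd34, a surface protein of progenitors, was at 391, 492 and 300 CPM against 892, 713 and 715 CPM (log2 -0.92, adjusted p = 0.0177). The 2 members higher in mutant LT-HSC were Lyz2, a lysozyme gene of macrophages and neutrophils, and Irf8, a transcription factor of monocytes and dendritic cells, described with the controls. Csf1r, the macrophage growth factor receptor, was at 7.58, 169 and 14.7 CPM in LT-HSC and at 50, 32.3 and 65.7 CPM in MPP, where LT-HSC mutant 2 alone exceeded the MPP libraries (adjusted p = 0.773). Leaving out 1 library gave 11 to 22 members higher in MPP. Cd34 did not pass with LT-HSC mutant 1 or any 1 MPP mutant left out (edgeR adjusted p up to 0.0672), nor Irf8 without LT-HSC mutant 1 or MPP mutant 2 or 3 (up to 0.0694).

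Of 16 tested genes of the lymphoid list, 8 were higher in mutant MPP and 1 in mutant LT-HSC, against 7.98% and 14.9% of all genes (median log2 -0.86), and 11 of the 27 members were too low to be tested. Rag2, a subunit of the recombinase of antigen receptor genes, was at 0, 0.288 and 0.664 CPM in LT-HSC and at 14.5, 9.44 and 11.5 CPM in MPP (adjusted p = 0.00514). Il7r, the receptor for a lymphoid growth cytokine, had no counts in any LT-HSC mutant and 3.31, 1.09 and 2.63 CPM in MPP mutants, at least 28.2-fold higher against a floor of 3 counts over the LT-HSC group. Ikzf1, a transcription factor of lymphoid priming, was at 111, 128 and 181 CPM against 282, 297 and 312 CPM (log2 -1.03, adjusted p = 0.0123). Ltb, which encodes lymphotoxin beta, was the member higher in LT-HSC, at 249, 116 and 225 CPM against 68.4, 66.5 and 64.6 CPM (log2 1.61, adjusted p = 0.0081). Without MPP mutant 3 the count higher in MPP was 5, with Ikzf1 and Il7r among those lost (edgeR adjusted p = 0.0597 and 0.0565). Ikzf1 and Ltb did not pass without MPP mutant 2. In control MPP, Il7r was at 36.5, 30.8 and 17.1 CPM and Rag2 at 44.5, 34.0 and 24.6 CPM, above all mutant MPP values.

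Several genes that separated the mutant populations were low in both control populations. Fbp1, the fructose-bisphosphatase of liver and kidney that catalyses a step of glucose synthesis, was at 6.59, 4.03 and 4.35 CPM in LT-HSC mutants and at 72.9, 60.6 and 62.8 CPM in MPP mutants. It was 12.7-fold higher in MPP (log2 -3.66, SE 0.208, adjusted p = 0.000512). In controls Fbp1 stood at 0.462, 0.589 and 2.04 CPM in LT-HSC and at 2.93, 2.24 and 2.48 CPM in MPP. Its neighbour Fbp2, the muscle form of the enzyme, was at 16.8, 49.8 and 18.4 CPM against 246, 248 and 253 CPM in mutants (log2 -3.08, SE 0.423, adjusted p = 0.00514) and at most 0.413 CPM in any control. Fbp2 lies at 62836884 to 62858400 and Fbp1 at 62864753 to 62888298 on chromosome 13. Tmem150c, a membrane protein gene, was at 14.2, 9.11 and 15.1 CPM against 85.7, 86.9 and 86.1 CPM in mutants (log2 -2.69, SE 0.195, adjusted p = 0.000906) and at most 0.0771 CPM in any control. For these 3 genes every mutant MPP library lay above every mutant LT-HSC library, and all mutant libraries lay above all control libraries. Tmem150c overlaps its antisense gene Tmem150cos. The difference between the mutant and the control contrast did not pass for Fbp1 (edgeR adjusted p = 0.0906), Fbp2 (0.844) or Tmem150c (0.699). Fbp2 and Tmem150c lay near 0 in controls, so for them this test could not decide whether the contrasts differ. The other enzymes of glucose synthesis did not follow Fbp1 and Fbp2: Pck2, the mitochondrial phosphoenolpyruvate carboxykinase, was higher in LT-HSC (149, 120 and 120 against 83.8, 71.1 and 80.7 CPM, log2 0.77, adjusted p = 0.00732), and Pcx and G6pc3 did not pass.

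Lars2, which encodes the mitochondrial leucyl-tRNA synthetase, was among the most abundant genes that differed: 503, 674 and 722 CPM in LT-HSC mutants and 5040, 5340 and 5402 CPM in MPP mutants (log2 -3.0, SE 0.166, adjusted p = 0.000512). The same contrast in controls had a log2 fold change of -3.41. Rn45s was also higher in mutant MPP, at 5563, 3765 and 4977 CPM against 11353, 12355 and 12739 CPM (log2 -1.30, adjusted p = 0.00263). Within the LT-HSC mutants, LT-HSC mutant 1 had the most Rn45s and the least Lars2. The small RNA gene Mir6236 was higher in mutant MPP too, at 2.47, 3.74 and 3.39 CPM against 39.2, 37.3 and 40.8 CPM (log2 -3.55, adjusted p = 0.000562). Whether the level of ribosomal RNA has a part in the Lars2 value was not tested.

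Tested genes of mitosis, ribosome building and respiration had small negative log2 fold changes of LT-HSC over MPP, and a minority of each list passed. All 32 tested mitosis genes had a negative log2 fold change of LT-HSC over MPP (median -0.46, from -0.75 to -0.20), and 6 passed the test, 18.8% of the list against 7.98% of all genes higher in MPP. DESeq2 called 18 of them and the joint fit of all 12 libraries 30. Mki67, a marker gene of proliferating cells, was at 318, 329 and 364 CPM in LT-HSC and at 500, 622 and 594 CPM in MPP (log2 -0.71, SE 0.114, adjusted p = 0.00834). Top2a, a topoisomerase of dividing cells, was at 419, 569 and 413 CPM against 720, 829 and 728 CPM (log2 -0.64, adjusted p = 0.0243). In the DNA replication list 5 of 34 tested members passed, all higher in MPP (14.7%, median -0.19), and the joint fit called 13. Rrm1, a ribonucleotide reductase subunit, was one of them (467, 590 and 551 against 743, 850 and 789 CPM, adjusted p = 0.026). Cdk6, a kinase that moves cells into the cycle, was at 16.6, 11.6 and 18.8 CPM against 51.0, 45.5 and 45.8 CPM (log2 -1.55, SE 0.193, adjusted p = 0.00416). LT-HSC mutant 2 had the highest summed mitosis level of the LT-HSC mutants, 7752 CPM against 5651 and 6778 CPM, with 9034 to 10508 CPM in MPP mutants. Without LT-HSC mutant 2, 26 mitosis genes and 16 replication genes passed. Without LT-HSC mutant 3 these counts were 14 and 8, and without LT-HSC mutant 1 they were 2 and 1. Without MPP mutant 1 they were 2 and 0, and without MPP mutant 2 or 3 both were 0. Top2a and Rrm1 were also lost without MPP mutant 1 (edgeR adjusted p up to 0.106 and 0.113 over the left-out libraries).

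All 30 tested ribosome biogenesis genes had negative log2 fold changes (median -0.36). Of these 13 passed (43.3%, against 7.98% of all genes higher in MPP), and 24 did in the joint fit. Myc, the transcription factor that drives ribosome production, was at 259, 292 and 303 CPM in LT-HSC and at 591, 602 and 542 CPM in MPP (log2 -0.97, SE 0.107, adjusted p = 0.003). Npm1, which encodes nucleophosmin of the nucleolus, was at 901, 1183 and 994 CPM against 1631, 1941 and 1751 CPM (log2 -0.73, adjusted p = 0.0114). All 38 tested nuclear genes of oxidative phosphorylation were likewise negative (median -0.31). Of these 10 passed (26.3%), with 20 by DESeq2 and 32 in the joint fit. Among the 10 was Ndufa4, a respiratory chain subunit, at 193, 233 and 203 CPM against 339, 343 and 324 CPM (adjusted p = 0.0102). Without LT-HSC mutant 2, 24 ribosome biogenesis and 27 oxidative phosphorylation genes passed. Without LT-HSC mutant 1, 9 and 4 did. Without MPP mutant 1, 6 and 3 did, without MPP mutant 2, 1 and 0, and without MPP mutant 3, 2 and 0. Glycolysis genes went both ways, with 5 of 25 tested members higher in LT-HSC and 4 in MPP (median -0.12). These are 20% and 16%, against 14.9% and 7.98% of all genes. Ldhb, a lactate dehydrogenase subunit, was higher in LT-HSC (159, 90.7 and 108 against 43.2, 37.5 and 37.0 CPM, adjusted p = 0.00394), and Hk1, a hexokinase that overlaps Hk1os, was higher in MPP (274, 251 and 347 against 476, 593 and 530 CPM, adjusted p = 0.0113). Npm1, Ndufa4 and Hk1 did not pass without MPP mutant 2 or 3 (edgeR adjusted p up to 0.0612, 0.0551 and 0.0583).

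Interferon-stimulated genes, which cells switch on when interferon binds its receptor, were higher in mutant LT-HSC wherever they passed the test. Of 48 members, all tested, 22 were higher in mutant LT-HSC and none in mutant MPP, against 14.9% and 7.98% of all genes. All 48 log2 fold changes were positive (median 1.2, from 0.17 to 3.75). The summed level of the list was 4992, 6278 and 2925 CPM in LT-HSC mutants 1, 2 and 3 and 2748, 2132 and 2053 CPM in MPP mutants. LT-HSC mutant 3 was close to MPP mutant 1, and the other LT-HSC mutants were far above. In controls the sums overlapped, at 4748, 3659 and 3876 CPM in LT-HSC and 3787, 4460 and 3257 CPM in MPP, and 4 members were higher in LT-HSC and 8 in MPP (20.5% and 18% of all genes in that comparison). The count was sensitive to single libraries. It was 41 without LT-HSC mutant 3, 18 without LT-HSC mutant 2, 3 without LT-HSC mutant 1, 9 without MPP mutant 1 and 0 without MPP mutant 2 or 3, while the median log2 fold change stayed between 0.69 and 1.52.

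Several members shared an order of libraries. Ifi44, an interferon-induced gene of antiviral defence, was at 24.1, 56.8 and 10.2 CPM in LT-HSC mutants and at 2.95, 2.18 and 1.86 CPM in MPP mutants (log2 3.75, SE 0.648, adjusted p = 0.0101). Gbp3, a guanylate-binding protein gene, was at 32.4, 36.5 and 18.7 CPM against 11.7, 10.3 and 8.64 CPM (log2 1.56, SE 0.273, adjusted p = 0.0103). Trim30a, a ubiquitin ligase gene, was at 62, 89.4 and 33 CPM against 20.8 ± 1.47 CPM (mean ± SD, 3 libraries; edgeR log2 1.61, adjusted p = 0.0169). For all 3 the LT-HSC libraries lay above the MPP libraries, LT-HSC mutant 2 was the highest and LT-HSC mutant 3 the lowest of its group. Ifitm1 and Ifitm3, which encode membrane proteins that block virus entry, had log2 fold changes of 2.02 (adjusted p = 0.0102) and 1.69 (adjusted p = 0.0141). Reads of the Ifitm family may be split uncertainly between near-identical members. The signal transducers Stat2 and Irf9 passed (log2 0.61 and 1.10, adjusted p = 0.023 and 0.0228). Irf7, a transcription factor of the interferon response, did not pass, at 84.1 ± 87.3 CPM against 14.9 ± 3.76 CPM (mean ± SD, 3 libraries each; edgeR adjusted p = 0.0515), with LT-HSC mutant 2 at 183 CPM. The receptor gene Ifnar1 was at 89.7, 85.3 and 80.7 CPM against 73.4, 66.8 and 69.2 CPM (log2 0.34, adjusted p = 0.045). Stat2, Irf9 and Trim30a did not pass with LT-HSC mutant 1 or any 1 MPP mutant left out, and Ifnar1 did not pass with any 1 library other than LT-HSC mutant 3 left out.

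Markers of another cell type were uneven across the same libraries. The summed level of the macrophage list was 451, 2661 and 685 CPM in LT-HSC mutants 1, 2 and 3 and 776, 617 and 826 CPM in MPP mutants, so LT-HSC mutant 2 stood far above the other 5. The complement gene C1qb, made by tissue macrophages, was at 4.36, 201 and 18.1 CPM in LT-HSC and at 35.5, 12.4 and 26.1 CPM in MPP. Cd163, a macrophage receptor gene, was at or below 0.184 CPM in all 6 libraries, and Mertk and Siglec1 were at 0 in LT-HSC mutant 1. None of 21 tested macrophage genes passed in edgeR (median log2 1.26), DESeq2 called 1, and without LT-HSC mutant 2 the median was -0.65 with 2 of 21 higher in MPP. With the macrophage sum as a covariate, 25 interferon-stimulated genes were higher in LT-HSC and their median log2 fold change was 0.97. The hepatoblast list summed to 321, 541 and 106 CPM in LT-HSC mutants and to 137, 147 and 113 CPM in MPP mutants, with Fga, Fgb, Fgg, Rbp4 and Apom at 0 in LT-HSC mutant 3 and Apoc3 at 0 in all 6. Of 17 tested hepatoblast genes, Krt18 was higher in LT-HSC and Hnf4a in MPP, against 14.9% and 7.98% of all genes. In the fit without LT-HSC mutant 3, which tested 21, the counts were 20 and 1, beside 2555 and 2532 of 12632 genes. With the hepatoblast sum as a covariate, 17 interferon-stimulated genes were higher in LT-HSC and their median was 0.41.

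**Figure D3:**
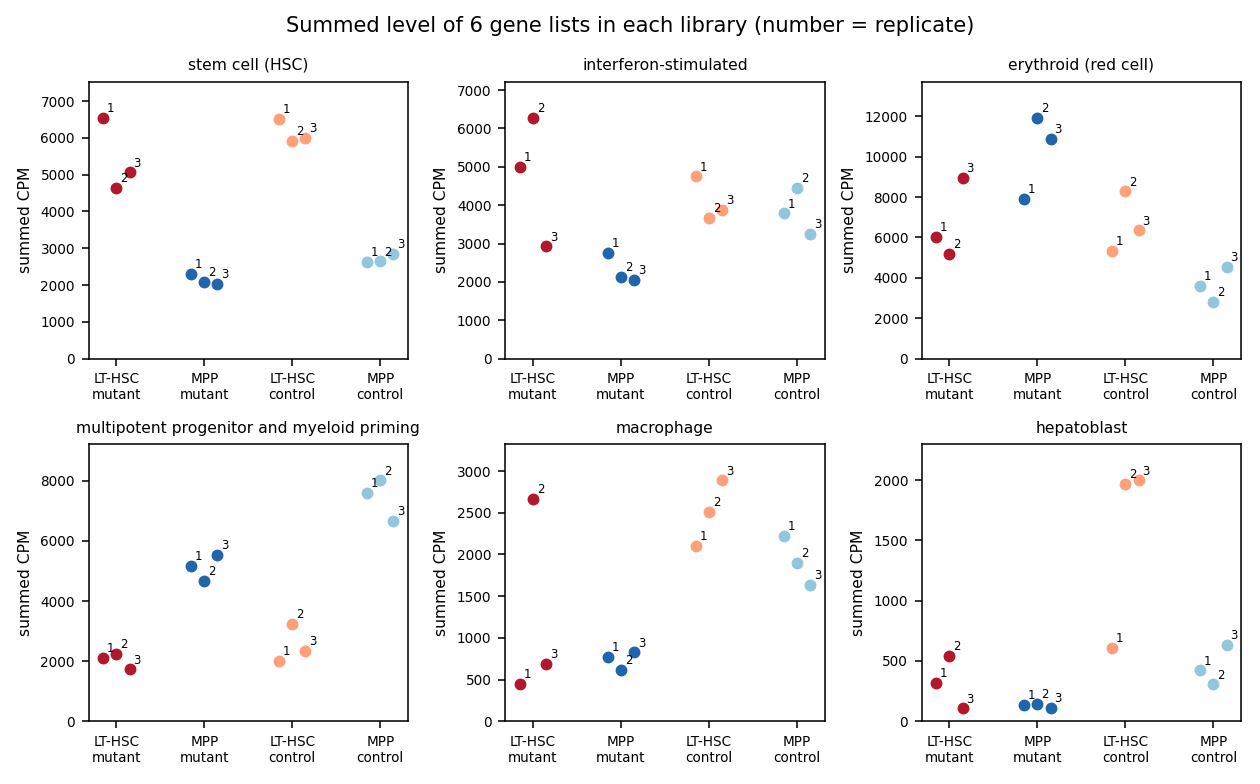
Summed CPM (y axis, from 0) of all measured members of 6 gene lists in each of the 12 libraries (x axis, by group, with replicate numbers beside the points). The macrophage panel shows LT-HSC mutant 2 at 2661 CPM above the other mutant libraries, and the interferon panel shows LT-HSC mutant 3 at 2925 CPM next to MPP mutant 1 at 2748 CPM.

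Promoters of interferon-stimulated genes often carry the element bound by the STAT and IRF complex, so the 250 bases before each RefSeq transcription start (GRCm38.p6) were searched for GAAA, any 2 bases and GAAA again, on either strand (TTTC, any 2 bases and TTTC where it lies on the other strand). Overlapping matches were allowed. Of the interferon-stimulated genes with a promoter in the table, 13 of 36 (36.1%) held a match, as did 7 of 19 (36.8%) of those higher in mutant LT-HSC. Among all genes tested with a promoter, 321 of 9978 (3.2%) did, and in the stem cell list 1 of 26. Of all promoters in the table, 978 of 32851 (3.0%) held it. The promoters of 4 called members are shown 5′ to 3′ on the strand of the gene, with matches in capitals, because they are the called members with the smallest p that hold one. They lie at chr3:142559794-142560043 on the plus strand (Gbp3), chr7:104465194-104465443 on the minus strand (Trim30a), chr7:140955962-140956211 on the minus strand (Ifitm2) and chr10:128270248-128270497 on the plus strand (Stat2).
Gbp3: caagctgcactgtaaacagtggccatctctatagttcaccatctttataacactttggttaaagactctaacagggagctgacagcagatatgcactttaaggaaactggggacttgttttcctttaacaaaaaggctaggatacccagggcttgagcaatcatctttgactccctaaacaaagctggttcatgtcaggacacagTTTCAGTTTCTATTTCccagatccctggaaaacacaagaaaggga
Trim30a: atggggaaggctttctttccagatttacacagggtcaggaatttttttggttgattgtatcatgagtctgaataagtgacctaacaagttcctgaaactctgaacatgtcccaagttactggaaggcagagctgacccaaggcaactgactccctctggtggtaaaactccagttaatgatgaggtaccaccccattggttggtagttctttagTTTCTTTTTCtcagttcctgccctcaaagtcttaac
Ifitm2: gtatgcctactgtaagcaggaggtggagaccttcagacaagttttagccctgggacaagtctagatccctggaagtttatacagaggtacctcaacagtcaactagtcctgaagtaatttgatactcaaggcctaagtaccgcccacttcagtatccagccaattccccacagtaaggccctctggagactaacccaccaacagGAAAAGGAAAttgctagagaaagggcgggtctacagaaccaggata
Stat2: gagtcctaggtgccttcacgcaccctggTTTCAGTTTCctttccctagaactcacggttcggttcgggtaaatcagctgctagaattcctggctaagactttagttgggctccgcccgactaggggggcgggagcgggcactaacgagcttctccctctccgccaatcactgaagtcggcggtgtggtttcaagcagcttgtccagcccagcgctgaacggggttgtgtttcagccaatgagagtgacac
The match nearest the start began 39 bases before it in Gbp3, which has 2 overlapping matches, 36 in Trim30a, 46 in Ifitm2 and 222 in Stat2. Ifi44 and Ifitm1, the called members with the smallest p, held no match in this window. A match describes the letters only, and no binding was measured here.

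The MHC and antigen presentation list holds genes of class I, of its peptide supply and of class II, many of which interferon also raises. It shares B2m, Tap1, Psmb8 and Psmb9 with the interferon list. Of its 18 tested members, 11 were higher in mutant LT-HSC. None was higher in mutant MPP (median log2 1.16). Of all genes, 14.9% were higher in LT-HSC and 7.98% in MPP. H2-D1, a classical class I heavy chain gene, was at 1303, 1148 and 740 CPM in LT-HSC and at 445, 283 and 323 CPM in MPP (log2 1.65, SE 0.245, adjusted p = 0.0067). B2m, the light chain gene, was at 1328, 1441 and 706 CPM against 694, 483 and 481 CPM (log2 1.11, adjusted p = 0.0304). Tap1, a subunit of the peptide transporter, was at 146, 169 and 79.7 CPM against 60.2, 37.4 and 47.5 CPM (log2 1.49, adjusted p = 0.0153). In all 3 the groups did not overlap and LT-HSC mutant 3 was the lowest LT-HSC library. H2-Q7 was at 25.4, 21.3 and 8.48 CPM against 0.644, 0.272 and 0.508 CPM (adjusted p = 0.00244), but H2-Q7 and H2-Q6 are near-identical and their reads may be split uncertainly. The class II gene H2-DMa, at 21.7, 15.1 and 11.7 CPM against 33.5, 21.0 and 25.2 CPM, did not pass (adjusted p = 0.109). Without LT-HSC mutant 1 the count of called members was 5, and without MPP mutant 2 or 3 it was 4 each. B2m and Tap1 were lost in each of these 3 fits (edgeR adjusted p up to 0.129 and 0.0729), and B2m also without LT-HSC mutant 2.

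Few red cell genes passed, and their median log2 fold change was negative in mutants and positive in controls. Of 33 tested members 28 had negative log2 fold changes (median -0.77), 2 were higher in MPP and 1 in LT-HSC, against 7.98% and 14.9% of all genes. The 2 members higher in MPP were Tfrc, the transferrin receptor that brings iron into cells, and Slc4a1, the band 3 anion exchanger of the red cell membrane. Tfrc was at 134, 180 and 253 CPM in LT-HSC mutants and at 350, 492 and 414 CPM in MPP mutants (log2 -1.09, SE 0.248, adjusted p = 0.023). Slc4a1 was at 46.1, 28.9 and 68.1 CPM against 102, 128 and 131 CPM (log2 -1.28, SE 0.291, adjusted p = 0.0227). Nfe2, a transcription factor of megakaryocytes and red cells, was the member higher in LT-HSC (442, 385 and 365 against 258, 243 and 233 CPM, log2 0.75, adjusted p = 0.00417). DESeq2 called 13 members higher in MPP and the joint fit 14, and without MPP mutant 2 or 3 none passed in that direction, Tfrc and Slc4a1 included (edgeR adjusted p up to 0.0958 and 0.0902). Slc4a1 also did not pass without LT-HSC mutant 1.

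LT-HSC mutant 3 separated from the other LT-HSC mutants in these genes. Klf1, the master regulator of red cell genes, was at 102, 135 and 328 CPM in LT-HSC mutants 1, 2 and 3 and at 212, 297 and 330 CPM in MPP mutants (adjusted p = 0.407). Car1, a carbonic anhydrase of red cells, was at 437, 580 and 1372 CPM against 1096, 1800 and 1645 CPM (adjusted p = 0.178). In both, LT-HSC mutant 3 fell among the MPP mutants. Without LT-HSC mutant 3, 21 members were higher in MPP and 4 in LT-HSC, beside 2532 and 2555 of 12632 genes. The median log2 fold change of the list was then -1.12. In controls 22 of 33 members were higher in LT-HSC and none in MPP (median 0.86). The log2 difference between the mutant and the control contrast had a median of -1.55 over the 33 members, and Trim10, a gene of late red cell development, passed (-2.15, adjusted p = 0.0417), against 0.377% of all genes in that test. DESeq2 called 14 of the 33 and edgeR without LT-HSC mutant 3 called 22, all with a more negative contrast in mutants. Over all genes these fits called 334 of 13249 and 885 of 13513. Trim10 did not pass with LT-HSC mutant 1 or 2, MPP mutant 2 or 3, any 1 LT-HSC control, or MPP control 1 or 2 left out (edgeR adjusted p up to 0.144). Hbb-b2 and Hbb-bt, adult beta globin genes, had the same value in every library, so their reads cannot be told apart.

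Genes normally restricted to germ cells did not separate mutant LT-HSC from mutant MPP beyond the test, with 1 exception. Of 19 tested members of the germline list, Dnah8, a dynein of sperm flagella, passed, at 145, 121 and 142 CPM in LT-HSC and at 184, 204 and 193 CPM in MPP (log2 -0.46, SE 0.0971, adjusted p = 0.0185). That is 1 of 19, against 22.8% of all genes. Stag3, a cohesin subunit of meiosis, was at 165, 130 and 169 CPM in LT-HSC and at 186, 218 and 205 CPM in MPP (log2 -0.34, adjusted p = 0.0848). Trap1a, a gene of germ cells and tumours, was at 173, 119 and 187 CPM against 141, 238 and 185 CPM (adjusted p = 0.562). Tex19.1, which guards germ cells against retroelements, was at 49.2, 49.4 and 144 CPM against 140, 222 and 176 CPM (adjusted p = 0.115), with LT-HSC mutant 3 among the MPP values. In controls, Tex19.1 was at or below 0.221 CPM and Stag3 at or below 20.4 CPM in every library. Without LT-HSC mutant 3, 6 members were higher in MPP and 1 in LT-HSC, beside 2532 and 2555 of 12632 genes. Dnah8 did not pass with any 1 MPP mutant left out (edgeR adjusted p up to 0.0906). DESeq2 called 4 members higher in MPP, beside 1632 of 12452 genes.

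In the list of H3 lysine 9 and DNA methylation machinery, which holds Setdb1, 1 of 21 tested members was higher in each population. That is 4.76% each way, against 14.9% of all genes higher in LT-HSC and 7.98% higher in MPP. Cbx3, a heterochromatin protein gene, was at 187, 162 and 154 CPM in LT-HSC and at 296, 314 and 288 CPM in MPP (log2 -0.79, SE 0.0917, adjusted p = 0.00342). Dnmt3a, a DNA methyltransferase that stem cells need to differentiate and which overlaps Dnmt3aos, was at 338, 315 and 276 CPM against 181, 136 and 135 CPM (log2 1.09, SE 0.147, adjusted p = 0.0049). Trim28, the corepressor that recruits SETDB1, was at 149, 129 and 267 CPM against 357, 337 and 352 CPM, without overlap, and did not pass (log2 -0.89, adjusted p = 0.0516). DESeq2 called 5 members higher in MPP, beside 1632 of 12452 genes.

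Of 36 tested cytokine receptor genes, 13 were higher in mutant LT-HSC and 5 in mutant MPP (36.1% and 13.9%, against 14.9% and 7.98% of all genes). Il11ra1, a cytokine receptor that overlaps Ccl27a, was at 140, 117 and 96.1 CPM in LT-HSC and at 33.2, 25.8 and 28.3 CPM in MPP (log2 2.06, SE 0.167, adjusted p = 0.00133). Tgfbr3, a co-receptor for TGF-beta, was at 122, 130 and 85.8 CPM against 32.1, 33.8 and 41.3 CPM (log2 1.70, adjusted p = 0.00263). Il1r1 and Il6ra, receptors for inflammatory cytokines, were higher in MPP, with log2 fold changes of -1.46 and -1.13 (adjusted p = 0.0072 and 0.0193). Of the adhesion, integrin and chemokine receptor list which holds the sort genes Slamf1 and Cd48, 13 of 42 tested members were higher in LT-HSC and 9 in MPP (31% and 21.4%). Ccr7, which guides cells to lymphoid tissue, was at 0.329, 0.192 and 0.442 CPM against 10.3, 7.26 and 7.54 CPM (log2 -4.58, adjusted p = 0.00144). Jam3, a junction protein gene, was at 74.0, 58.0 and 38.1 CPM against 14.4, 13.6 and 9.49 CPM (log2 2.23, adjusted p = 0.00395). The counts without MPP mutant 2 were 5 and 3 for the cytokine receptors and 6 and 4 for the adhesion list. Without MPP mutant 3 they were 6 and 2, and 6 and 4. Il6ra did not pass with LT-HSC mutant 1 or any 1 MPP mutant left out (edgeR adjusted p up to 0.088).

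In the remaining lists the counts stand beside 14.9% of all genes higher in mutant LT-HSC and 7.98% higher in mutant MPP. Of 24 tested cell cycle inhibitors and quiescence genes 5 (20.8%) were higher in mutant LT-HSC, among them Txnip, a regulator of glucose uptake and redox state (692, 493 and 470 against 301, 255 and 262 CPM, adjusted p = 0.00581), and Cdk6, which that list also holds, was higher in MPP. Of 24 immediate early genes 5 (20.8%) were higher in LT-HSC, with Zfp36, which encodes an RNA-destabilising protein, at 65.4, 50 and 52.6 CPM against 28.3, 27.9 and 30.1 CPM (adjusted p = 0.00422). The p53 target and apoptosis list had 3 of 23 members higher in LT-HSC and 2 in MPP (13% and 8.7%), and the cholesterol synthesis list 1 of 23 and 2. Few mast cell, stromal and mature lineage genes were high enough to be tested, 7, 4 and 4 in turn. Of the 7 mast cell and basophil genes, 1 was higher in LT-HSC and 3 in MPP (14.3% and 42.9%, median log2 -1.13). The 1 was Ikzf2, a transcription factor gene (97.6, 77.7 and 73.7 against 29.6, 25.3 and 23.9 CPM, adjusted p = 0.00159). Hdc, Il1rl1 and Prg2 were the members higher in MPP. Klrb1c, a natural killer cell receptor gene, was also higher in LT-HSC (23.3, 15.9 and 13.2 against 1.56, 1.09 and 1.27 CPM, adjusted p = 0.00119). Of the 4 stromal genes, 2 were higher in LT-HSC, Postn and Nes, and 1 in MPP (50% and 25%, median log2 0.99). That 1 was Pdgfrb, a receptor gene of stromal cells (1.65, 0.767 and 0.221 against 46.8, 27.7 and 28.8 CPM, adjusted p = 0.00252). In controls the log2 fold change of Pdgfrb was -4.81.

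**Figure D4:**
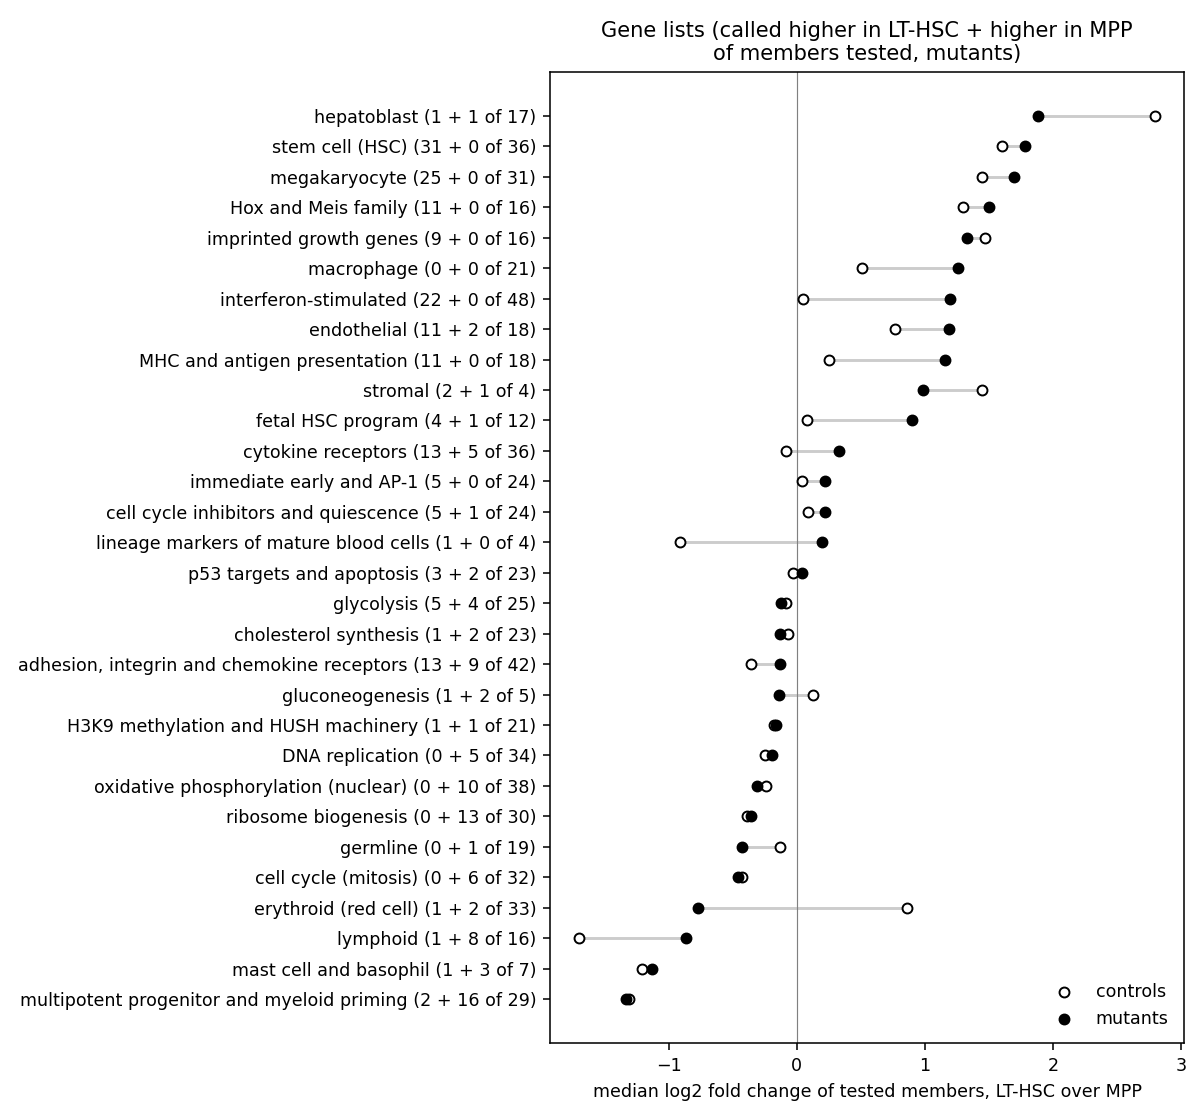
Median log2 fold change of LT-HSC over MPP (x axis) of the tested members of 30 gene lists (y axis) in mutants (filled) and controls (open). The numbers after each name are members higher in LT-HSC, members higher in MPP and members tested in the mutants; the erythroid medians lie on opposite sides of 0, at -0.77 and 0.86.

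Controls were compared in the same way in libraries that the mutant comparison does not share. Of 12834 genes tested 4942 (38.5%) passed in controls, 2628 higher in LT-HSC and 2314 higher in MPP. Among the 12234 genes tested in both comparisons, 2124 were called in the same direction. These made up 75.7% of the 2805 mutant calls and 45.8% of the 4637 control calls. Only 18 genes were called in opposite directions. Of the 2495 called in controls alone, 2076 had the same sign in mutants, and of the 663 called in mutants alone, 578 had the same sign in controls. The median SE of a log2 fold change was 0.182 in mutants and 0.148 in controls. Among genes with the same call, the median size of the log2 fold change was 1.08 in mutants and 0.94 in controls. Pearson's r of the log2 fold changes was 0.795 across the 12234 genes, which are not independent replicates.

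The difference between the mutant and the control contrast was tested over all 12 libraries. Every mutant library carried vav-cre, but among controls only LT-HSC controls 2 and 3 and MPP control 3 did. The control contrast is thus uneven for vav-cre, and its part and that of the Setdb1 genotype cannot be told apart in this difference. It passed in 50 of 13249 genes (0.377%), 30 with a more positive contrast in mutants (0.226%) and 20 with a more negative one (0.151%). The unadjusted p was under 0.05 in 1637 genes. Of the genes called in mutants alone 6 passed this test, and of those called in controls alone 30 did, so most genes called in 1 genotype were not shown to differ between them. The count was 1 (Ahsa2) without MPP mutant 2 and 885 without LT-HSC mutant 3. Without LT-HSC mutant 1 it was 17, and without MPP mutant 3 it was 4. Without LT-HSC controls 1, 2 and 3 it was 15, 11 and 10, and without MPP controls 1, 2 and 3 it was 7, 5 and 14.

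Ahsa2, which encodes a co-chaperone of HSP90, had the smallest p in that test. It was at 151, 144 and 147 CPM in LT-HSC mutants and at 448, 444 and 376 CPM in MPP mutants, 2.77-fold higher in MPP (log2 -1.47, SE 0.100, adjusted p = 0.000793). In controls it was at 90.6, 85.9 and 78.5 CPM in LT-HSC and at 57.9, 68.8 and 69.7 CPM in MPP (log2 0.39, adjusted p = 0.0179). The order of the populations was thus reversed, with no overlap in either genotype, and the contrasts differed by -1.90 (adjusted p = 0.000165). Ahsa2, on chromosome 11 from 23487882 to 23498045, overlaps Usp34.

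Lyz2 went the other way. It was at 517, 446 and 444 CPM in LT-HSC mutants and at 254, 247 and 288 CPM in MPP mutants (log2 0.88, SE 0.099, adjusted p = 0.00307). Among controls, LT-HSC stood at 403, 482 and 380 CPM and MPP at 991, 1253 and 740 CPM (log2 -1.23, adjusted p = 0.000391). The LT-HSC values of the genotypes overlapped, and every MPP mutant lay below every MPP control. Irf8 was at 69.0, 62.1 and 53.5 CPM against 41.1, 31.2 and 40.3 CPM in mutants (log2 0.76, adjusted p = 0.0166) and at 59.9, 50.1 and 46.7 CPM against 94.1, 129 and 106 CPM in controls (log2 -1.06, adjusted p = 0.000278). The contrasts of Lyz2 and Irf8 differed by 2.07 (adjusted p = 0.00741) and 1.78 (adjusted p = 0.0114). Ctsh, a lysosomal protease gene, and Trex1, a nuclease that clears cytosolic DNA, are 2 of the 9 opposite genes that also passed the test of the difference. They were named after their values were seen. Ctsh was at 17.7, 28.8 and 12.9 CPM against 6.63, 4.08 and 6.19 CPM in mutants, and Trex1 at 39.1, 40.6 and 33.6 CPM against 25.1, 25.9 and 23 CPM. Ctsh and Trex1 each lost the call of the difference in most fits with 1 library left out (edgeR adjusted p up to 0.144 and 0.16).

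In 3 further genes the control contrast was the larger one, and in Slfn2 the mutant contrast was. Coro2a, an actin regulator gene, was at 51.2, 46.3 and 40.4 CPM in LT-HSC mutants and at 70, 55.3 and 70.7 CPM in MPP mutants (log2 -0.46, adjusted p = 0.0604), while MPP controls lay at 158, 178 and 171 CPM. Hmga2, the chromatin protein of fetal stem cells, was at 116, 116 and 103 CPM against 102, 79.9 and 79.2 CPM in mutants (adjusted p = 0.0621), while MPP controls lay at 307, 286 and 256 CPM against 165, 156 and 175 CPM in LT-HSC controls. Itsn1, an endocytosis scaffold gene, kept its direction, at 90.8, 62.9 and 101 CPM against 55.6, 59.5 and 56.3 CPM (log2 0.62, adjusted p = 0.0422), beside a control log2 fold change of 2.14. Slfn2, a Schlafen gene of lymphocyte quiescence, was at 80.8, 63.6 and 32.0 CPM against 10.5, 10.6 and 12.9 CPM in mutants (log2 2.42, SE 0.322, adjusted p = 0.00476), while in controls the log2 fold change was -0.43 (adjusted p = 0.107). The log2 differences of these contrasts were 1.48, 1.13, -1.56 and 2.81, and all 4 passed. Hmga2 overlaps the antisense gene 9230105E05Rik. Itsn1 did not pass in mutants with LT-HSC mutant 1 or any 1 MPP mutant left out (edgeR adjusted p up to 0.146). Without MPP mutant 2 none of these 4 differences passed.

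**Figure D5:**
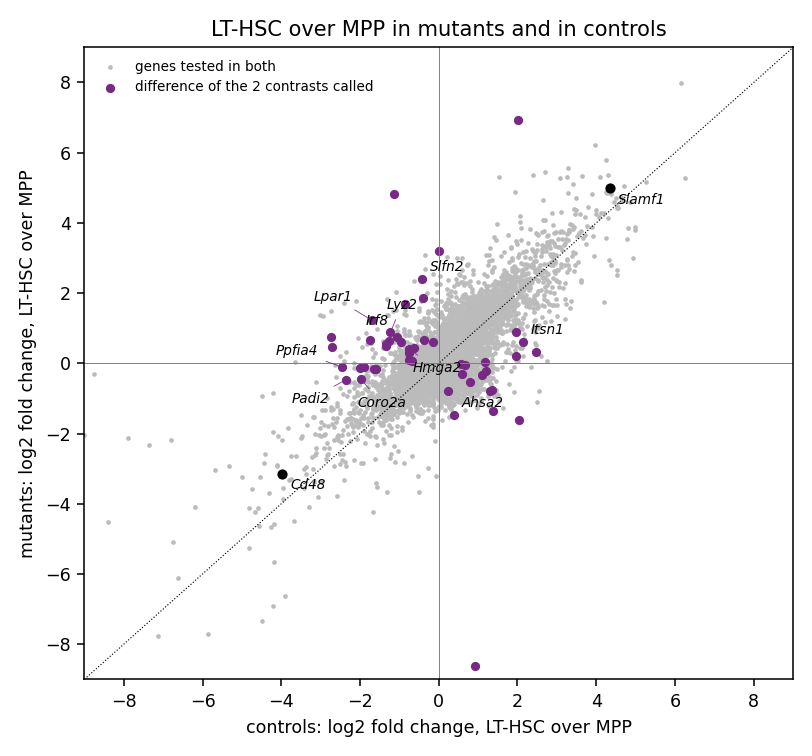
Log2 fold change of LT-HSC over MPP in controls (x axis) and in mutants (y axis) for the 12234 genes tested in both, with the line of equality dotted and 3 genes outside the axes. Purple points are genes whose contrasts differed (adjusted p under 0.05), with those of the naming rule labelled; Slamf1 and Cd48 lie near the line and Ahsa2 in the lower right quadrant.

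The interferon-stimulated genes did not pass this test singly: 0 of 48 had an adjusted p under 0.05, the smallest being 0.0832 (Zbp1), while 30 had an unadjusted p under 0.05 with a more positive contrast in mutants. The median difference was 1.01. DESeq2 called 6 of the 48, and edgeR without LT-HSC mutant 3 called 26, all with a more positive contrast in mutants. Over all genes these fits called 334 of 13249 and 885 of 13513. Nor did the MHC list, with 0 of 21 called and 12 at an unadjusted p under 0.05 (median 0.85). DESeq2 called 3 MHC genes, and edgeR without LT-HSC mutant 3 called 9. For the stem cell list 0 of 37 passed in edgeR, 9 had an unadjusted p under 0.05 (7 more positive in mutants, 2 more negative), DESeq2 called 2, and the median difference was 0.22. Without LT-HSC mutant 3, 4 passed.

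The place of each mutant library between the control populations was read over the 4942 genes called in controls, with control MPP at 0 and control LT-HSC at 1. LT-HSC mutants 1, 2 and 3 lay at 0.939, 0.733 and 0.737, and MPP mutants at 0.083, 0.097 and 0.047. By this measure LT-HSC mutants 2 and 3 stood nearer to the control MPP end than LT-HSC mutant 1 did, and the 3 MPP mutants lay near 0. The same controls gave the genes and fixed both ends, and none was held out to show where an unused control would lie. Among the genes higher in control LT-HSC were 19 of 21 hepatoblast, 12 of 22 macrophage and 22 of 33 red cell genes. Their part in the positions was not tested. The measure reads only along the difference between the control populations and leaves out any other change. Pearson's r of log2 CPM was 0.937 to 0.958 between mutant and control MPP libraries. Within control MPP it was 0.982 to 0.986, and within mutant MPP 0.985 to 0.989.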

How the data were processed

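RNA-seq libraries from sorted fetal liver cells were aligned and quantified by the authors with STAR and RSEM on mm10, with versions not given in the sources used here, per the submitters' processing notes. The deposited tables hold an expected count and a TPM value per gene, per the file headers, for 24054 genes. After rounding to whole numbers, the expected counts went into edgeR 4.0.16 in R 4.3.3 (TMM scaling, filterByExpr with a minimum count of 10 and a minimum total of 15, quasi-likelihood test, Benjamini-Hochberg adjustment, threshold 0.05). The mutant and control contrasts were each fitted on their own 6 libraries and their difference on all 12. CPM is counts per 1e6 counts of the scaled library. Library totals of 10119416 to 14113198 set the counting precision, and Rn45s stayed in the totals. The deposited TPM served for levels only and no TPM is printed.

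The 12 genes each way with the smallest p were named among those called, at least 2-fold different, without overlap and at 10 CPM or more. Also named were the 10 smallest p of the difference between contrasts, the 6 each way called in both genotypes, and up to 4 called members per list; placeholder symbols, small RNA, pseudogenes, Xist, Tsix and Y-linked genes were passed over. A few genes that the rule names are not reported here. Rn45s, Mir6236, Xist, Ddx3y, Ctsh, Trex1 and further members of the lists, passing or not, were named outside this rule, after their values were seen. The members and the 30 gene lists were chosen with earlier results of these data known. Of 833 list entries 830 matched a gene, and 23949 genes matched RefSeq (GRCm38.p6). The libraries do not keep strand, so overlapping and antisense genes cannot be told apart. The tests were tried on simulated counts. Alternatives were DESeq2 1.42.0, upper-quartile scaling, no filter, a joint fit, blocks, marker covariates, calls of at least 2-fold and leaving out each library.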

Additional observations from a re-analysis of the deposited data

Results flagged for a closer look

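In 50 genes the LT-HSC to MPP contrast of the mutants differed from that of the controls in edgeR's quasi-likelihood test of the difference itself. Of these, 11 are flagged here, the 10 with the smallest p that the naming rule took and Postn. The log2 difference, mutant minus control contrast, was -1.90 for Ahsa2, 2.07 for Lyz2, 1.78 for Irf8, 1.48 for Coro2a, 1.13 for Hmga2, -1.56 for Itsn1 and 2.81 for Slfn2, whose values by library are given with the controls above. Without MPP mutant 2, Ahsa2 alone of the 11 passed.

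For Lpar1, a lysophosphatidic acid receptor gene, the difference was 2.87 (adjusted p = 0.0114). It stood at 3.95, 3.16 and 2.21 CPM in mutant LT-HSC and at 1.47, 1.36 and 1.27 CPM in mutant MPP, while control MPP had a mean of 16.4 ± 2.43 CPM (SD, n = 3). For Ppfia4, a scaffold protein gene, it was 2.31 (adjusted p = 0.0114), with 6.75, 5.85 and 4.72 CPM against 6.90, 5.53 and 6.78 CPM in mutants and 26, 36.1 and 29.2 CPM in control MPP. For Padi2, which encodes an arginine deiminase, it was 1.85 (adjusted p = 0.0259), with 16.7, 15.6 and 11.8 CPM against 26.6, 15.7 and 20.6 CPM in mutants and 56.8, 68.0 and 54.7 CPM in control MPP. In all 3 genes every mutant MPP library lay below every control MPP library.

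For Postn, which encodes periostin of the stroma, the difference was 3.15 (adjusted p = 0.0288). It stood at 11.4, 14.7 and 7.01 CPM in mutant LT-HSC and at 2.02, 0.817 and 0.847 CPM in mutant MPP, and at 33.5, 36.8 and 23.9 CPM and 31.6, 23.6 and 38.6 CPM in the control groups, which overlapped.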

How the results depend on the processing

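The count of 2845 genes that differed between mutant LT-HSC and mutant MPP was 4729 in a joint fit of all 12 libraries, 1793 with the number in the deposited tables' names as a block and 1400 with calls of at least 2-fold only (1860 of 4942 in controls). With 1 library left out it ran from 582 (without MPP mutant 2) to 5087 (without LT-HSC mutant 3). Genes higher in LT-HSC then numbered 427 to 2555, and genes higher in MPP 143 to 2532. The block by the names' number gave 1064 higher in LT-HSC, and DESeq2 and the joint fit gave 1632 and 2349 higher in MPP. The share of calls higher in LT-HSC was 65.1%, against 55.9% by DESeq2, 50.3% in the joint fit and 70.5% with upper-quartile scaling. The 50 genes whose contrasts differed became 334 by DESeq2, 87 with no filter and 1 to 885 with a library left out. The 2124 genes called the same way in both genotypes became 540 to 2733. The cause of these changes was not tested. Of 120 named genes called in the mutant contrast, 76 were called in every alternative and none reversed; 43 were lost without MPP mutant 2, 43 without MPP mutant 3, 18 without LT-HSC mutant 1 and 15 without MPP mutant 1. Of 31 called genes named outside the rule, 8 were called in every alternative. Ppfia4, which had not passed, reversed from -0.10 to 0.03 without LT-HSC mutant 3, and ran from -0.21 to 0.03 over the left-out libraries. Where a left-out library leaves 2 against 3, the spread rests on fewer samples.

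The title numbers were not taken to pair the mutant libraries, since the correlations of same-numbered deviations were 0.159, -0.068 and 0.162. The pairs at 0.159 and 0.162 also share the number in the deposited names, and the pair at -0.068 does not. With the title number as a replicate block the mutant contrast had 3032 calls (1741 higher in LT-HSC, 1291 in MPP). The difference between contrasts had 2, Ahsa2 and Lyz2, so the other 9 flagged genes did not pass. The block gave 21 mitosis genes and 11 red cell genes higher in MPP. Numbers 1 and 3 correlated best with their own number, and number 2 did not.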
